A study of Mus musculus with 2 samples.

Results

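The genes described here encode vascular growth factors and their receptors, together with a marker of the vessel lining. They are the VEGF ligands Vegfa and Vegfc, the VEGF receptors Kdr, Flt1 and Flt4, the angiopoietin ligands Angpt1 and Angpt2, the receptors Tek and Tie1, and Pecam1, an adhesion molecule of endothelial cells. They were found by the gene name that the array files give to each non-control spot, which yielded 10 genes with 20 probes on 56 spots, out of 27580 gene names and 41174 probes on the array. Of the 10 genes, 8 were well above background on both arrays and are called measured here; Flt4 and Angpt1 were not.

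RNA came from the back of C3H/HeN males aged 61 days. The skin was used at full thickness, and hair removal had started anagen, in which follicles grow. On day 4 of anagen the skin received a subcutaneous injection of 1 µg of FGF18, a secreted fibroblast growth factor, or of phosphate-buffered saline (PBS) as control, and it was taken 24 h later, 5 days after depilation. No allele or other agent is given for either group. The labels name 3 mice without saying whether that is the number per group, and each group was put on 1 one-colour Agilent array. By the design text the RNA was pooled within groups, whereas the extraction protocol has each mouse extracted separately, so how many mice an array value stands for is not certain, and no spread between mice can be had. The title of the PBS sample contains the word telogen, the resting phase, but its other entries give anagen.

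With 1 array per group the differences below have no replicate check, no p-value is given, and precision is limited by the number of arrays. In whole skin, fewer cells of a type and less RNA per cell cannot be told apart. Of the 43379 probe spots, 62.4% (FGF18) and 61.5% (PBS) were well above background, and 0 were saturated. Ratios are given as log2 of FGF18 minus PBS after each array's processed signal was scaled to its 75th percentile, which was 1020 (FGF18) and 899 (PBS). On that scale the 16610 genes measured on both arrays had a median ratio of -0.07, with an SD of 0.40. The distance of a gene from that median does not depend on the constant used for scaling, so it is printed beside the ratio. Technical error was read from probes printed several times: the SD of the log2 ratio of a single spot had a median of 0.11 in the dimmest class (mean signals of 31.8 to 430.1), 0.041 in the middle class (444.8 to 2527) and 0.026 in the brightest. It does not include the spread between mice.

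VEGF ligands bind receptor tyrosine kinases on endothelial cells. Kdr, also called VEGFR2, carries most of the growth and permeability signal, Flt1 binds VEGF-A tightly and acts largely as a trap for it, and Flt4 drives lymphatic growth in response to VEGF-C. Angiopoietin-1 activates Tek, also called TIE2, and steadies vessels, angiopoietin-2 acts on Tek in a context-dependent way and is released by remodelling vessels, and Tie1 is a partner of Tek with no well-established ligand of its own. In mouse skin the vessel bed around the follicle grows during anagen, and follicle keratinocytes are a known source of VEGF-A.

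The receptor genes differed from one another: Kdr and Tie1 were higher on the FGF18 array, while Flt1 and Tek, a related receptor of each, lay close to the median of all genes. Kdr had the highest ratio of the 8 measured genes, 0.58, just under 1.5-fold, and Vegfc the lowest, -0.34 or 1.27-fold lower. No measured member was past 2-fold: 0 of 8 were at least 2-fold higher, where 1.54% of all measured genes were, and 0 were at least 2-fold lower, where 0.987% were. At 1.5-fold the counts were also 0 and 0, beside 3.79% of all genes higher and 4.82% lower, but Kdr lay so close to that line that the 0 depends on the scaling: Kdr was past 1.5-fold in 6 of 14 other ways of processing, at 0.59 to 0.76 in 5 of them and at 1.39 with spike-in scaling, which also puts Vegfa, Flt1, Tek, Tie1, Angpt2 and Pecam1 past it. The median ratio of the 8 was 0.09, which is 0.16 above the median of all genes, and 6 lay above that median and 2 below it.

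To place the receptor pairs in sequence, the 250 bases before the annotated gene start were read from RefSeq (GRCm38.p6), and they are shown for the 2 receptors with higher ratios and a related receptor of each. Capitals mark the core GGAA of ETS transcription factor sites, on either strand (TTCC on the strand shown); ETS factors are known regulators of endothelial genes. The windows are Kdr at chr5:75978456-75978705 (minus strand), Flt1 at chr5:147726012-147726261 (minus strand), Tie1 at chr4:118489850-118490099 (minus strand) and Tek at chr4:94739039-94739288 (plus strand).

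Kdr: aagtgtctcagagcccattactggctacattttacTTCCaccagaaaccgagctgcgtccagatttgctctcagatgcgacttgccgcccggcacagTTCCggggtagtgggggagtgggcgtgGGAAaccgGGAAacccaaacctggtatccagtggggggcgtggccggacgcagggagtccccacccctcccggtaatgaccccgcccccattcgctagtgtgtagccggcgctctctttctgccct

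Flt1: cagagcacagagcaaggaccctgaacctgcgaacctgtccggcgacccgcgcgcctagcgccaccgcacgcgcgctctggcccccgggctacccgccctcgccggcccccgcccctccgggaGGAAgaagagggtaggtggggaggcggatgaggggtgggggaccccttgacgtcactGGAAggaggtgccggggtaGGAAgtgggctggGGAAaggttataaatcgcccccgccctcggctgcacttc

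Tie1: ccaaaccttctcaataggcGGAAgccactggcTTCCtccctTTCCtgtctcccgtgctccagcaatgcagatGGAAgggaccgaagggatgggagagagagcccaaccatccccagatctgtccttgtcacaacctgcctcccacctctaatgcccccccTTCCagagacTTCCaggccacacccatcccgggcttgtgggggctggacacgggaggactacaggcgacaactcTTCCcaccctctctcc

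Tek: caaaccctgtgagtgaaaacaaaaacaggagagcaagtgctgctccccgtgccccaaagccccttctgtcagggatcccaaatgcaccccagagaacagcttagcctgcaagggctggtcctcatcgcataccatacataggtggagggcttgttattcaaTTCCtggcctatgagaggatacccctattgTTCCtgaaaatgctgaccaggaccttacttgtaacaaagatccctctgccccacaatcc

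Kdr and Flt1 each held 4 such matches, Tie1 7 and Tek 2, against a median of 3 over 27025 windows of the same length, of which 93.4% held at least 1. RefSeq windows were matched for 7 of the 10 members, and all 7 held GGAA. Of other motifs searched on both strands, the core of the interferon-stimulated response element was in the window of Vegfa alone (3.04% of all windows hold it), while TTCNNNGAA, bound by STAT factors (7.18%), and ACGTG, the core bound by hypoxia-inducible factors (16.6%), were in 0 of the 7. A match is a stretch of letters and not a shown binding site. Sites outside the 250 bases would not be seen, so a window without a match does not show that the gene lacks a site. For Vegfa, 2 windows were listed and only the first was read.

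Kdr, on chromosome 5, was printed as 10 spots of a probe designed on its RefSeq transcript. The FGF18 spots read 950 to 1070 (median 1010) and the PBS spots 546 to 638 (median 592.5). The lowest FGF18 spot was thus well above the highest PBS spot. Before scaling this also held for Vegfa and Pecam1, and its share among all probes with repeat spots was not counted. The spots are repeat readings of 1 RNA sample on each array, not replicates of the treatment. The ratios of the spots ran from 0.52 to 0.66 around the mean of 0.58 (SD 0.046 over 10 spots), which lay 0.65 above the median of all genes, and 3.83% of measured genes had a higher ratio. The second Kdr probe, designed on another cDNA and 28.3 kb upstream by the coordinate column of the files (whose build is not named), read 4.75 to 7.23 over its 10 spots on the arrays and was not above background on either.

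Flt1, on the same chromosome, was measured by 3 of its 5 probes. The 3′-most by the files' coordinates read 2190 (FGF18) and 1840 (PBS), a ratio of 0.07. A probe 0.07 kb upstream of it read 386 and 311, a ratio of 0.13. The remaining measured probe, designed on another cDNA 76.0 kb upstream, read 139 and 138, a ratio of -0.17. These ratios straddle 0 within 0.30 of each other, and their mean of 0.01 was 0.08 above the median of all genes. The other 2 Flt1 probes, further upstream and on other cDNAs, read 4.69 to 9.27 and were not above background.

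The difference between Kdr and Flt1 was 0.57, or 1.49-fold, and it is free of any constant scaling because both genes were read on the same arrays. It is larger than the single-spot SD of either probe class. It is not large beside the SD of 0.40 over all measured genes, and no spread between animals can be set against it. It was 0.37 to 0.57 over the other ways of processing, lowest when probes below background were averaged in.

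Flt4, on chromosome 11, had 1 probe, which read 20.2 (FGF18) and 19.9 (PBS). Both readings are under the lowest signal of a probe well above background (23.3 and 24.2), so no fold is given and the lymphatic VEGF receptor could not be compared at this signal.

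The ratios of Tie1 and Tek, both on chromosome 4, also differed. The 1 Tie1 probe read 237 (FGF18) and 159 (PBS), a ratio of 0.39 or 1.31-fold. That is 0.46 above the median of all genes, and 6.94% of measured genes had a higher ratio. The Tek probe on the RefSeq transcript read 259 and 248, a ratio of -0.12, which is 0.05 below the median of all genes. Tie1 was thus higher on the FGF18 array while Tek stood with the bulk of genes. The difference between them was 0.51, or 1.43-fold, with a range of 0.44 to 0.68 over the other ways of processing. Each gene rests on 1 spot per array in the dimmest class, with its single-spot SD of 0.11. The difference is not large beside the SD of 0.40 over all measured genes. A second Tek probe, 132.4 kb upstream, read 9.92 and 12 and was not above background.

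**Figure D1:**
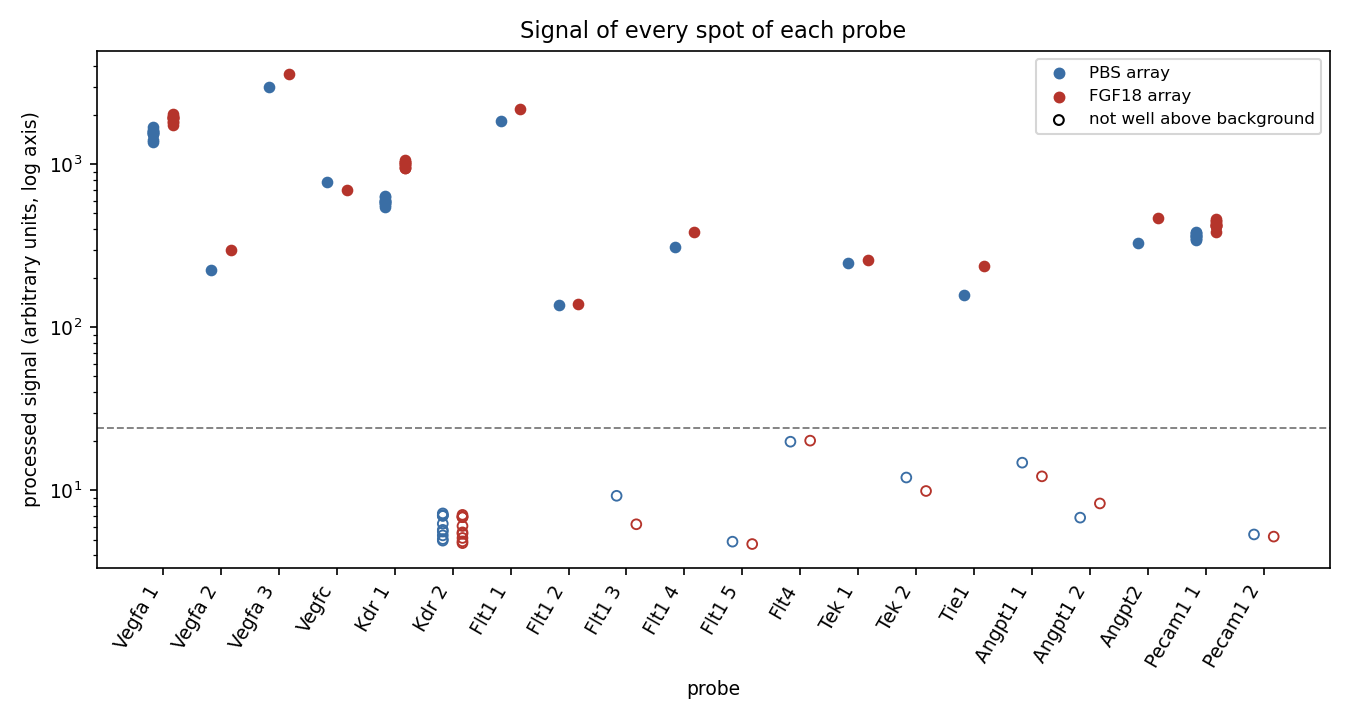
Processed signal (arbitrary units, log axis) of every spot of the 20 probes on the PBS array (blue) and the FGF18 array (red), with open circles for the 8 probes not well above background and the dashed line at the PBS array's lowest detected signal of 24.2. The 10 spots of the first Kdr probe read 950 to 1070 (FGF18) and 546 to 638 (PBS), and levels of different probes cannot be compared.

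Of the ligands, Angpt2 was higher on the FGF18 array, Vegfa by a small amount, and Vegfc was lower. Angpt2, on chromosome 8, read 472 (FGF18) and 329 (PBS), a ratio of 0.34 or 1.27-fold. This rests on 1 spot per array in the dimmest class, with its single-spot SD of 0.11. The ratio lay 0.41 above the median of all genes, and 8.50% of measured genes had a higher ratio. Angpt2 was 0.46 above its receptor gene Tek in ratio. Angpt1, on chromosome 15, had 2 probes, which read 12.2 and 8.32 (FGF18) beside 14.8 and 6.81 (PBS). Neither was above background, so the balance of the angiopoietins could not be measured here.

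Vegfa, on chromosome 17, was measured by all 3 of its probes. The probe with 10 spots read 1750 to 2050 in the FGF18 sample (median 1930) and 1370 to 1690 in the PBS sample (median 1560). The unscaled spots did not overlap, and the scaled ratio was 0.12 (SD 0.043 over 10 spots), where the unscaled one was 0.30 and the unscaled median of all genes 0.11. The 3′-most probe read 3570 and 2990, a ratio of 0.07. The probe designed on transcript variant 3, 7.99 kb upstream of it, read 298 and 226, a ratio of 0.22. All 3 probes were above 0, and the mean ratio of 0.14 (1.10-fold) was 0.21 above the median of all genes. A higher ratio was found in 20.2% of measured genes, so Vegfa was inside the bulk of the array.

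Vegfc, the lymphatic ligand, on chromosome 8, read 701 (FGF18) and 783 (PBS) by 1 probe. Its ratio of -0.34 lay 0.27 below the median of all genes, and 14.0% of measured genes had a lower ratio. The ratio of Vegfa was 0.48 above that of Vegfc, and 0.41 to 0.49 above it over the other ways of processing.

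Pecam1, on chromosome 11, whose protein is also found on platelets and leukocytes, stood close to the bulk of genes. Its 10-spot probe read 386 to 459 in the FGF18 sample (median 428) and 344 to 385 in the PBS sample (median 365), so that every FGF18 spot was above every PBS spot before scaling. After scaling the spot ratios ran from -0.03 to 0.11 around a mean of 0.05 (SD 0.050 over 10 spots), 0.12 above the median of all genes. The Kdr ratio was 0.53 above that of Pecam1, Tie1 0.34 above it and Angpt2 0.29 above it. A second Pecam1 probe on another cDNA read 5.21 and 5.37 and was not above background.

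**Figure D2:**
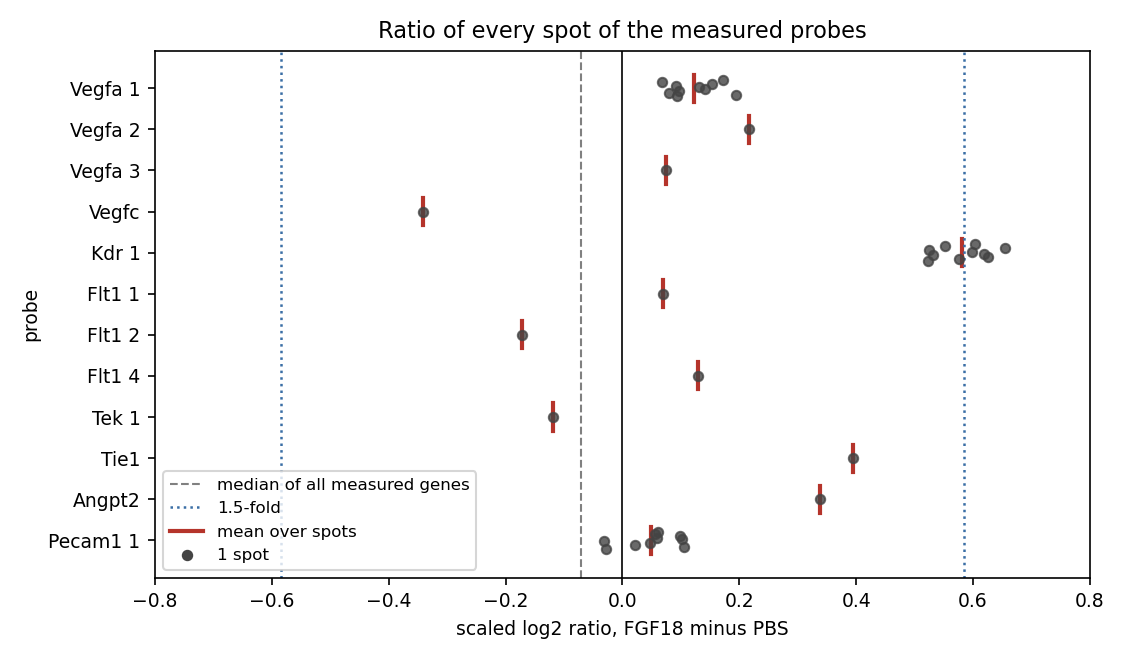
Scaled log2 ratio (FGF18 minus PBS) of every spot of the 12 measured probes (grey points), with the mean over spots (red bar), the median of all measured genes (dashed, -0.07) and 1.5-fold in each direction (dotted). The 10 Kdr spots straddle the 1.5-fold line from 0.52 to 0.66, Tie1 and Angpt2 follow at 0.39 and 0.34, and Vegfc is lowest at -0.34.

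Markers of the vessel lining were present, as the label of the gene set requires. All 35 genes of a blood endothelium list were measured, among them Cdh5, Emcn, Cldn5 and Esam, with a summed processed signal of 77189 (FGF18) and 69957 (PBS). Their median ratio was 0.01, which is 0.08 above the median of all genes, with 0 genes past 2-fold in either direction. The list holds 5 of the members; without them the median of the other 30 was 0.00. Kdr ranked 2 from the top and Tie1 next among the 35, behind Clec14a, an endothelial lectin, at 0.61 (signals of 92.8 and 53.6, and 0.36 with normexp background correction). Pecam1 ranked 15, Flt1 18 and Tek 26. Cdh5, the cadherin that joins endothelial cells, was at 0.00, Vwf, the clotting factor carrier, at -0.14, and Sox7, an endothelial transcription factor, lowest at -0.40 as the mean of probes at -0.70 and -0.10, the brighter of which would not be lowest. The higher ratios of Kdr and Tie1 were therefore not shared by the middle of the endothelial list.

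The 20 other ligands, co-receptors and signalling proteins of these pathways were all measured, with a median of -0.01, and 0 of 20 were past 2-fold. Angpt4, an angiopoietin that binds Tek, was highest at 0.67, at dim signals of 68.3 and 37.9; with normexp it was at 0.15, below Nos3, Vegfd and Nrp2. Nos3, the endothelial nitric oxide synthase that acts below Kdr, read 479.1 and 295.7, a ratio of 0.51. Vegfd, another ligand of Flt4, was at 0.38 (1770 and 1200), in the opposite direction to Vegfc. Among the co-receptors, Nrp2 was at 0.27 on 1 probe, and Nrp1 at -0.35 as the mean of 2 probes at -0.65 and -0.05. Ptprb, a phosphatase that restrains Tek, was at -0.42 on 1 of its 4 probes. Pgf and Vegfb, both ligands of Flt1, were at 0.07 and -0.14. Ccbe1 and Adamts3, which help to process VEGF-C, were at -0.13 on 1 of 4 probes and -0.25 on 1 of 3. The Adamts3 signals were dim (58.8 and 61.8), and without a filter on dim probes its ratio was 0.43. Of the proteins that relay receptor signals, Ptpn11 was lowest at -0.55 (3 probes from -0.81 to -0.11). Shb was at -0.19, Sphk1 at -0.10 and Prkca at -0.02. Nck1 was at -0.07 with probes from -0.62 to 0.22. Plcg1, Cav1, Grb14 and Dok2 lay between 0.04 and 0.10, and Sh2d2a was at 0.00.

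Neighbouring vascular programmes gave few genes past 2-fold. Of 18 genes of sprouting tips and of Notch signalling, 1 was at least 2-fold lower and 0 higher, and the median was -0.17. The 1 gene was Unc5b, a guidance receptor of vessel tips, at -1.01 (1100 and 1960); it was under 2-fold with 7 of the 14 other ways of processing. Of 9 measured lymphatic genes, 1 was at least 2-fold higher, with a median of 0.00: Fxyd6, a regulator of the sodium pump, read 3978 and 1547 with its probes at 0.83 and 1.54, and was under 2-fold with the brightest probe alone (0.83). Summed over probes, the list's signal was 30943 (FGF18) and 19868 (PBS), of which the Fxyd6 probes gave 21850 and 10728 and the other genes 9093 and 9140. Mural cell genes, of pericytes and vascular smooth muscle, had a median of -0.03 over 14 genes with 0 past 2-fold, from Tagln at -0.42 to Abcc9 at 0.51. Secreted inhibitors of vessel growth had a median of -0.21 over 12 genes, with 0 past 2-fold. They ran from Vash1, at -0.75, to Thbs1, which encodes thrombospondin-1, at 0.73. A list of other secreted ligands of vessel growth had a median of -0.08 over 11 genes, from Sema3f at -0.39 to Ccn1 at 0.63. It holds semaphorin genes, so it is not a list of growth promoters alone.

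Targets and regulators of oxygen sensing, the pathway that induces Vegfa in low oxygen, had a median of -0.01 over 17 genes with 0 past 2-fold. Ddit4 was highest at 0.68 and Epas1, a hypoxia-inducible factor of endothelial cells, lowest at -0.90 on 1 of its 2 probes. Genes of endothelium activated by inflammation had a median of 0.04 over 13 measured genes, with 2 at least 2-fold higher: the chemokine Ccl2 (2.30) and Ch25h (1.97), an enzyme that makes an oxysterol. Of the other 4 genes, Sele, which encodes E-selectin, Madcam1 and Il6 were above background on neither array. The chemokine gene Cxcl1 was above it in the FGF18 sample only (37.5 against 24.0), at least 1.37-fold higher. By contrast 11 of 12 interferon-response genes were at least 2-fold higher, with a median of 2.79. Among these 12, measured on both arrays, the leading genes were Rsad2 (10.6-fold), Ifit3 (10.4-fold), Igtp (9.39-fold) and Mx1 (8.83-fold). The remaining gene of the list, the chemokine Cxcl11, was above background in the FGF18 sample only (721 against 21.2) and at least 26.3-fold higher.

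**Figure D3:**
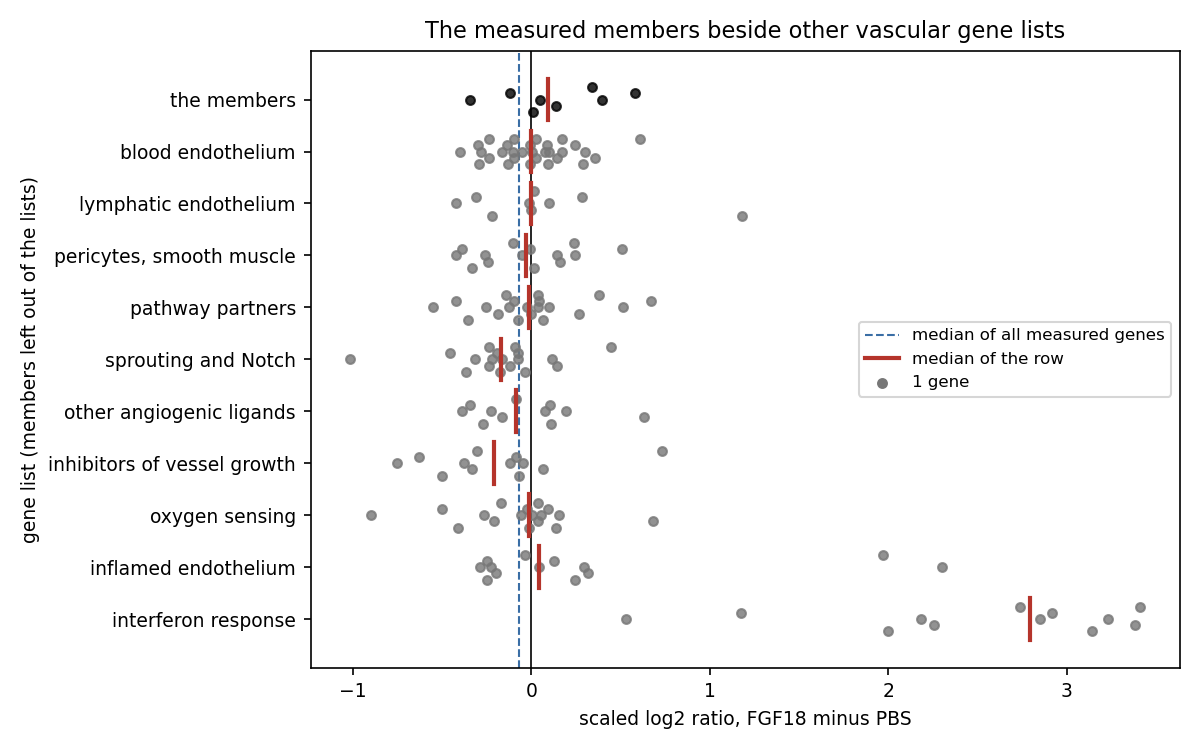
Scaled log2 ratio (FGF18 minus PBS) of each measured gene (points) in the set described here (top row, black) and in 10 other gene lists with the members left out, with each row's median (red bar) and the median of all measured genes (dashed, -0.07). The members' median of 0.09 is above those of the vascular lists, which run from -0.21 (inhibitors of vessel growth) to 0.04 (inflamed endothelium). The interferon-response list stands apart at 2.79.

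Markers of other cells that skin holds lay on both sides of the median of all genes, except that 0 of 8 fibroblast markers lay above it. All 9 macrophage markers were measured, with a median of -0.27, 4 above 0 and 5 below. Their summed signal was 88527 (FGF18) and 96070 (PBS), a sum that bright probes can dominate and that was not split by gene. The 1 gene past 2-fold was higher: Msr1, a scavenger receptor, at 1.55 (3 probes from 0.68 to 2.04), and the integrin gene Itgam was just under it at 0.99. The 5 lower ones were Mrc1 at -0.70, Lyz2 at -0.45, Cd163 at -0.40, Csf1r at -0.31 and Cd14 at -0.27. Lymphocyte markers were measured for 6 of 9 genes, with sums of 4326 and 2780, a median of -0.30 and 0 past 2-fold. The pan-leukocyte gene Ptprc, at 0.69, made up the higher sum: without it the sums were 513 and 604, and the T cell genes Cd3e, Cd3g, Cd4 and Cd2 lay between -0.68 and -0.16. Cd8a, Cd79a and Ms4a1 were not measured. Of platelet and erythrocyte markers 5 of 8 were measured, with sums of 11431 and 7132, or 521 and 542 without the haemoglobin gene Hba-a1. Their median was -0.07, with 2 above 0 and 3 below, from Gp1bb at -0.92 to Hba-a1 at 0.54. Gp9 and Ppbp were above background on neither array. Gp5 passed background in the PBS sample alone (48.0, against 15.3 with FGF18), which bounds its decrease at 2.34-fold or more. Fibroblast markers had a median of -0.28 over 8 genes, and 3 were at least 1.5-fold lower, where 4.82% of all measured genes were. Keratinocyte markers had a median of -0.22 over 8 genes, with 7 below 0. Adipocyte markers had a median of 0.20 over 6, Schwann cell markers -0.02 over 6 and skeletal muscle markers 0.14 over 6. In these 5 lists 0 genes were past 2-fold. The part of such cells in the member ratios was not tested.

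The side of the median of all genes on which each member lay changed little with the processing. Kdr, Tie1, Angpt2, Vegfa and Pecam1 lay above the median of all genes in 14 of 14 alternatives to the setting used, and Vegfc and Tek in 0 of 14. Flt1 lay above it in 13. Scaling by a constant cannot move a gene against that median. The choice among probes cannot move the ratio of a gene with 1 probe (Tie1, Angpt2 and Vegfc). Nor can the choice among measured probes move Kdr, Tek and Pecam1, which had 1 measured probe each. These counts are therefore in part fixed in advance. Against 0 instead of that median, Flt1 was above in 12 of 14 and Pecam1 in 13. The ratios themselves shift with the scaling: scaling to spike-in transcripts adds 0.81 to every log2 ratio, which puts Kdr (1.39), Tie1 (1.21) and Angpt2 (1.15) past 2-fold and turns Vegfc and Tek to the higher side, at 0.47 and 0.69, and Tek is also above 0 without any scaling. On that scale the median of all genes is 0.74. With probes below background averaged in, Kdr fell to 0.18, because its second, undetected probe then counts as much as the first. Kdr then stood below Tie1 (0.39) and Angpt2 (0.34). With normexp background correction Tie1 and Angpt2 were each at 0.245.

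**Figure D4:**
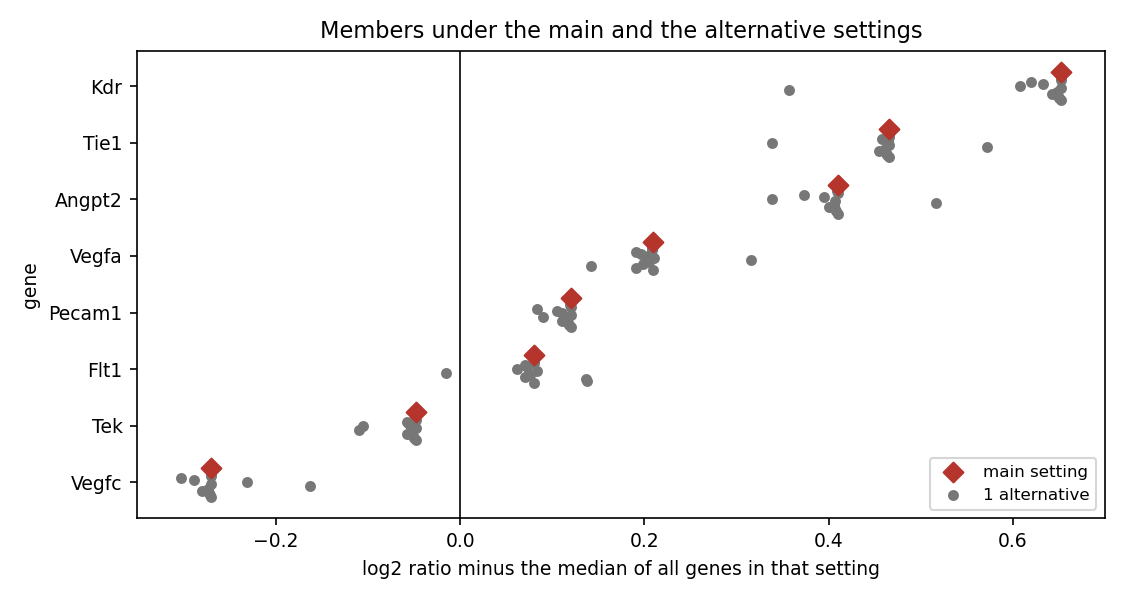
Log2 ratio of each measured member minus the median of all genes, in the setting used (red diamond) and in 14 alternatives (grey points). Kdr stays highest except where probes below background are included, when it is at 0.36, and Vegfc is lowest throughout.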

How the data were processed

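Gene expression was measured on 2 one-colour Agilent arrays (design 014868) from Cy3-labelled cRNA made from 200 ng of poly(A) RNA, per the labels' protocols. Per the file headers, images were read by the GE1-v5_95_Feb07 protocol of Feature Extraction 9.5.3.1. The deposited intensity values are mean signals, local backgrounds and processed signals, per the file headers background-subtracted and detrended. The other deposited columns used are flags and spot types. The series value table, deposited as a ratio on a linear scale, was found to be the processed signal over each array's median over all spots (83.8 and 80.0), with column medians of 1.00 and 0.999 and the same direction; any further step is not given in the sources. There were 0 unmapped columns of sample values.

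From these, log2 of the processed signal was taken, each array's 75th percentile was subtracted, control and outlier-flagged spots were left out, and repeat spots of a probe were averaged. A probe was called measured if, on both arrays, a share of 0.5 or more of its spots had the flag for well above background; measured probes of a gene were averaged. Names were updated through RefSeq (GRCm38.p6), 23360 probes by accession, 6727 by symbol and 2907 by synonym, while members kept the name in the files, and 8160 others kept theirs too. The files name no build, so probe coordinates are not given. The calculation was tested on simulated data. Python 3.11.15, pandas 2.3.3, R 4.3.3 and limma 3.58.1 were used.

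The members and lists were chosen with earlier results of these data known. Genes named are the 10 members, the measured pathway partners, and from each other list the genes past 2-fold (at most 4 in each direction) or else the highest and lowest; Cdh5, Emcn, Cldn5, Esam, Vwf, Sele, Madcam1, Il6, Cxcl1, Cxcl11 and the markers of other cells were named after their values were seen, and 1 marker gene is not reported here. The 16 alternatives covered scaling, normalization, background correction (normexp with an offset of 50), the filter, the summary over probes, gene names and thresholds of 1.5 and 3.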

Additional observations from a re-analysis of the deposited data

How the results depend on the processing

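No paired analysis was possible because each group has 1 array and no result comes from a test. The counts of members past 2-fold stayed at 0 and 0 in the alternatives with that threshold, except that scaling to 7 spike-in probes put 3 members at least 2-fold higher, a scaling that assumes equal spike-in per RNA. Thresholds of 1.5 and 3, run with the 75th percentile alone, also gave 0 and 0, but at 1.5-fold Kdr passes with 5 other scalings and normalizations (0.59 to 0.76) besides the spike-in one. The median of the members minus that of all genes was 0.16 (0.14 to 0.17 over the alternatives with 8 members) and 0.054 without a filter on dim probes, where all 10 members enter. The same value for the blood endothelium list was 0.08, and 0.17 without that filter. In 2 settings added after seeing the data, leaving out 1 member gave 0.12 (Vegfa, Kdr, Tie1 or Angpt2) or 0.21 (Vegfc, Flt1, Tek or Pecam1), and the endothelial list without members gave 0.07. Signal over background limits what can be said of Flt4 and Angpt1, whose probes lay under the lowest detected signal.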
